A study of Mus musculus with 2 samples.

Results

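RUNX1, RUNX2 and RUNX3 are transcription factors that share a DNA-binding Runt domain, and CBF beta, the product of Cbfb, is the common partner that raises their affinity for DNA without touching it. RUNX1 is required for blood cells to form in the embryo and shapes myeloid and lymphoid lineages, RUNX3 is best known from T and NK cells, and RUNX2 from bone and from plasmacytoid dendritic cells. The messages of these 4 genes, of 31053 genes in the count tables, were chosen by symbol and were described by sort and in cells gated on lineage markers. Mouse bone marrow was sorted into E-cadherin+cKIT+ cells and into E-cadherin+ cells without cKIT (E-cadherin+cKIT-), and each population was measured as 1 single-cell library of 10x Genomics 3′ UMI counts. The labels give FVB as the strain of both. The study's text calls the mice wild-type, while its figure legend gives them as VaviCre; mTmG, in which a Cre driven in blood cells by Vav switches a reporter from red to green and Cdh1 is not floxed. Both populations share this background, and no treatment or age is named for either. The same legend gives more than 1 mouse as the source of the sorted cells, and the counts do not tell the animals apart. A UMI (unique molecular identifier) stands for 1 captured RNA molecule, and levels are given as CPM, for which the UMIs of a gene in a group of cells are divided by all UMIs of that group and multiplied by 1000000. The sort was made on surface E-cadherin, and no E-cadherin negative population was sequenced for comparison.

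The E-cadherin+cKIT+ library held 6479 cells after filtering, with a median of 13039 UMIs, and the E-cadherin+cKIT- library 3662 cells, with a median of 4416.5. Kit had 37.1 CPM in the first and 0.875 CPM in the second, as sorted, and Cdh1, which encodes E-cadherin, had 62.8 and 193 CPM. The libraries shared 10 cell barcodes. With 1 library per population there is no replicate, so no test was made and no p-value is given. Intervals are 95% intervals for counting error only, from the exact Poisson for levels and from the exact binomial (Clopper-Pearson) for ratios of levels and for shares. Each UMI comes from the 3′ end of a message, so levels of different genes are set side by side without division by length, and the alternative promoters of Runx1 and Runx3 are not told apart.

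Cells were grouped by the share of their UMIs that came from a marker. Mcpt8, a protease gene of the basophil lineage, marked 3071 cKIT+ and 2197 cKIT- cells at 0.5% or more of their UMIs. Elane, which encodes the neutrophil elastase of granulocyte and monocyte progenitors, marked 605 cKIT+ cells and 1 cKIT- cell at 0.2% or more. Gzmb, which encodes granzyme B, marked 302 cKIT+ cells at 0.05% or more, and all 8 cKIT- cells that passed this gate also passed that for Mcpt8 and were set aside. Other markers followed the split: Prss34, a second basophil protease gene, had 21405 CPM in cKIT+ Mcpt8 cells, 148 CPM in Elane cells and 118 CPM in Gzmb cells. Mpo, the myeloperoxidase gene, had 9194 CPM in Elane cells and 142 CPM in Gzmb cells. Gzmb cells had 193 CPM of Kit and 435 CPM of Cma1, a mast cell chymase gene, against 16.6 and 3.01 CPM in cKIT+ Mcpt8 cells. Several other genes of mast cells and basophils were lower in Gzmb than in cKIT+ Mcpt8 cells. Cpa3 had 1903 against 3128 CPM, Ms4a2 425 against 1392 CPM, Fcer1a 46.9 against 703 CPM and Hdc 82.8 against 282 CPM. Gata2 was higher, at 888 against 717 CPM. The cells are called by their gate and not by a cell type. No gate was passed by 1448 cKIT+ and 1118 cKIT- cells. Cdh1 itself differed widely between the gates, with 104 CPM in cKIT+ and 185 CPM in cKIT- Mcpt8 cells, 41.8 CPM in Gzmb cells and 2.75 CPM in Elane cells. It was also low in cKIT+ cells gated on haemoglobin genes (4.64 CPM) or on Cd79a and Cd79b (2.82 CPM). Both values lie below what 3 UMIs would give in these cells, 13.9 and 8.47 CPM. No Cdh1 UMI was found in the 7 cKIT- cells gated on Siglech, which allows up to 97.1 CPM and is too few to decide. The 3 cKIT+ Siglech cells had 38.6 CPM. The label E-cadherin+ was therefore matched by little Cdh1 message in Elane cells and, from very few UMIs, in haemoglobin and Cd79 cells. Whether these cells carried the protein was not tested.

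The start sites of the RUNX genes carry copies of the motif that the RUNX proteins themselves bind. On GRCm38, Runx1 lies on the minus strand (chr16:92601466-92826149), Runx2 on the minus strand (chr17:44495987-44814797), Runx3 on the plus strand (chr4:135120652-135177990) and Cbfb on the plus strand (chr8:105170674-105217989). RefSeq windows of 250 bases before to 50 bases after a start site (GRCm38.p6) were matched by symbol for all 4 genes. The stretch below is shown because 1 window of each RUNX gene holds it, with an identical run of 18 bases, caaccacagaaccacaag. The capitals mark ACCACA, the reverse complement of TGTGGT.
Runx1: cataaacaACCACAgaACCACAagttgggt
Runx2: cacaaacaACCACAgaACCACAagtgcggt
Runx3: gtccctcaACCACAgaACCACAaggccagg
These stretches are read 5′ to 3′ on the strand of the gene, and lie at chr16:92826025-92826054, chr17:44814583-44814612 and chr4:135120503-135120532. Counted from the RefSeq start sites, the Runx1 and Runx2 stretches begin 21 and 16 bases into the message, and the Runx3 stretch begins 142 bases before the start site. These start sites differ from the gene coordinates given above, which are those of GENCODE M21. Neither the second, internal windows of Runx1 and Runx3 nor the window of Cbfb held ACCACA on either strand. Over all 32851 windows, 16.8% held ACCACA on at least 1 strand, overlaps between copies included. The pair ACCACAGAACCACA, searched on both strands, was in 4 windows (0.0122%), those of Runx1, Runx2, Runx3 and Gm16225. The Gm16225 window lies on the other strand and overlaps the Runx3 window, including the stretch shown. A match describes letters, and no binding was measured.

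Runx1 was the most abundant of the 4 messages in both sorted populations, and it was lower in cKIT+ than in cKIT- cells. Its level was 292 CPM (288 to 295) in cKIT+ cells, from 26573 UMIs, and 481 CPM (472 to 490) in cKIT- cells, from 10998 UMIs. Runx2, the rarest, had 17.7 CPM (16.9 to 18.6) and 30.1 CPM (27.9 to 32.4). The antisense gene Runx2os1, which lies inside Runx2 and whose reads may not have been kept apart by strand, had 3.03 and 4.46 CPM. Both were thus lower in the cKIT+ library, with ratios of 0.606 (0.593 to 0.620) for Runx1 and 0.589 (0.538 to 0.645) for Runx2. Runx3 had 53.7 CPM (52.2 to 55.3) in cKIT+ and 49.0 CPM (46.1 to 51.9) in cKIT- cells, a ratio of 1.10 (1.03 to 1.17). Cbfb, the shared partner, had 60.9 CPM (59.3 to 62.5) and 91.0 CPM (87.1 to 94.99), a ratio of 0.669 (0.636 to 0.704). None of the 4 members was past 2-fold, where 16.4% of the 8023 genes with at least 10 CPM in 1 of the populations were (7.3% higher in cKIT+ and 9.06% lower). Runx2 came to 0.492 with cells thinned to 2000 UMIs and to 0.489 with the same weight for every cell, just past 2-fold. The median log2 ratio of the members was -0.65, against -0.03 over those 8023 genes. In bulk sums of this kind, fewer cells of a type and less RNA per cell cannot be told apart, which is why the gated cells follow.

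Within Mcpt8 cells the same order was seen with smaller differences for Runx1 and Runx2. Runx1 had 396 CPM (390 to 402) in cKIT+ and 523 CPM (513 to 534) in cKIT- Mcpt8 cells, a ratio of 0.756 (0.737 to 0.775). Runx2 had 14.8 CPM (13.7 to 15.995) and 19.96 CPM (18.0 to 22.1), a ratio of 0.743 (0.653 to 0.847). Runx3 was nearly level, at 52.9 CPM (50.8 to 55.0) and 51.2 CPM (47.9 to 54.6), and the interval of its ratio of 1.03 runs from 0.958 to 1.12. Cbfb had 66.3 CPM (63.9 to 68.7) and 100.2 CPM (95.6 to 104.9), a ratio of 0.661 (0.624 to 0.702). Again 0 of 4 members was past 2-fold, beside 9.01% of 7721 genes (4.2% higher in cKIT+ and 4.82% lower). The median depth of these cells was 14099 UMIs in cKIT+ and 7736 in cKIT- cells. Thinning to 2000 UMIs leaves out cells with fewer, so that 3024 cKIT+ and 2162 cKIT- Mcpt8 cells remained. In these the ratios were 0.802 for Runx1, 0.579 for Runx2, 1.08 for Runx3 and 0.755 for Cbfb.

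**Figure D1:**
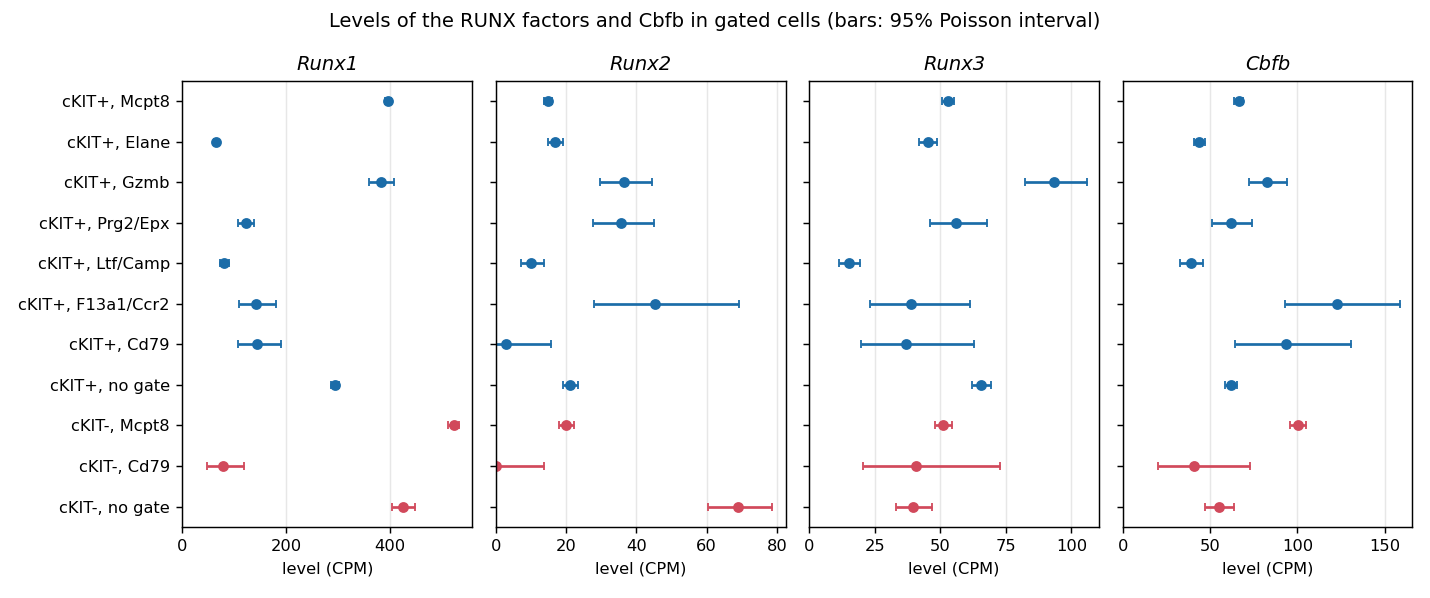
Level of each gene (CPM, linear axis, 1 panel per gene with its own scale) in gated cells of the cKIT+ (blue) and cKIT- (red) libraries, with 95% Poisson intervals. Groups of at least 50 cells labelled with no or 1 gate are shown, and Mcpt8, Elane and Gzmb cells could also pass a smaller gate. Runx1 sits at 64.5 CPM in Elane cells and at 383 to 523 CPM in Mcpt8 and Gzmb cells, and Runx2 is highest, at 69.0 CPM, in the cKIT- cells of no gate.

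Elane cells were past 2-fold from Mcpt8 cells in Runx1 alone among the 4 genes. Runx1 had 64.5 CPM (60.4 to 68.7) in the 605 Elane cells, from 939 UMIs, against 396 CPM in Mcpt8 cells of the same library, and was thus 6.14 times lower (5.75 to 6.56). Of the 7798 genes tested here, 2.58% had a ratio below that of Runx1. Runx2 was at a similar level in both groups, 16.8 CPM (14.7 to 19.0) in Elane cells, with a ratio of 1.13 (0.971 to 1.31). Runx3 had 45.2 CPM (41.9 to 48.8), a ratio of 0.856 (0.784 to 0.933), and Cbfb 43.8 CPM (40.5 to 47.3), a ratio of 0.661 (0.606 to 0.720). So 1 of 4 members was at least 2-fold lower and 0 higher, where 14.8% of tested genes were past 2-fold, 8.84% lower and 5.94% higher. In the 510 Elane cells that passed none of the other gates, the Runx1 ratio was 0.147.

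Whether the Runx1 UMIs of Elane cells exceed free RNA from other cells was not resolved by the reference used here. Cells gated on haemoglobin genes in the cKIT+ library served as the reference for RNA from outside a cell, since the cKIT- library held only 3 such cells. At 2000 UMIs per cell, 13.02% of Elane cells (10.4% to 15.98%) and 7.69% of haemoglobin cells (3 of 39, 1.62% to 20.9%) held a Runx1 UMI, and these intervals overlap. In Mcpt8 cells the share was 55.1% (53.3% to 56.9%) in the cKIT+ and 61.6% (59.5% to 63.7%) in the cKIT- library, and in Gzmb cells 53.2% (47.3% to 58.9%). Before thinning, the median depth was 24286 UMIs in Elane cells and 4270.5 in haemoglobin cells. At these unlike depths, 69.9% (66.1% to 73.5%) of Elane cells and 10.9% (3.62% to 23.6%) of haemoglobin cells held a Runx1 UMI. Thinned shares and CPM compare parts of the UMIs of a cell and not UMIs per cell. The levels of Runx1 over all UMIs were alike, with 64.5 CPM in Elane cells and 64.9 CPM (35.5 to 109.0), from 14 UMIs, in the 46 haemoglobin cells. These 14 UMIs lay in 5 of the cells, and whether they came from outside them was not tested. Mcpt8 had 229 CPM in Elane and 371 CPM in haemoglobin cells, against 11085 CPM in the whole cKIT+ library, where Runx1 had 292 CPM. Runx2 was found in 0 of 39 haemoglobin cells, which allows a share of up to 7.69%. This limit lies above the Runx2 share of Mcpt8 cells of the same library, 3.31% (2.70% to 4.01%). In cKIT- Mcpt8 cells the share was 5.60% (4.67% to 6.65%), for which that library gave no usable haemoglobin reference. Cells gated on Cd79a and Cd79b, B cell receptor genes, were set beside Runx2 as well, although the haemoglobin cells were the planned reference. They held 1 Runx2 UMI in 53 cKIT+ cells, or 2.82 CPM (0.0715 to 15.7), and 0 UMIs in 72 cKIT- cells, which allows up to 11.1 CPM. The Runx2 level of cKIT- Mcpt8 cells was above that limit. It was within the interval of the 27 cKIT- cells gated on the neutrophil granule genes Ltf and Camp, 19.6 CPM (5.34 to 50.2) from 4 UMIs. The result thus depends on the group taken as reference. The 14.8 CPM of cKIT+ Mcpt8 cells was not above the counting interval of the cKIT+ Cd79 cells, which with 1 UMI is too wide to decide. The cKIT+ Ltf and Camp cells had 10.1 CPM (7.19 to 13.8). Elane had 41.1 CPM in cKIT+ Mcpt8 cells, against 2193 CPM in the whole cKIT+ library, where Runx2 had 17.7 CPM. The part of free RNA in these levels was not tested.

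By CPM, Gzmb cells had as much Runx1 as Mcpt8 cells and more Runx2 and Runx3. Runx1 had 383 CPM (360 to 407) in the 302 Gzmb cells, a ratio of 0.969 (0.909 to 1.03) to cKIT+ Mcpt8 cells. Runx2 had 36.6 CPM (29.7 to 44.6), from 99 UMIs, and was 2.47 times higher (1.98 to 3.05). Runx3 had 93.5 CPM (82.4 to 106.0), the highest level of this gene among the groups of at least 50 cells, and was 1.77 times higher (1.55 to 2.01). Cbfb had 82.4 CPM (72.0 to 94.0), a ratio of 1.24 (1.08 to 1.43). Here 1 of 4 members was at least 2-fold higher and 0 lower, where 20.1% of the 8268 tested genes were past 2-fold, 12.8% higher and 7.28% lower. This comparison depended on the scaling, since the median gene had a log2 ratio of 0.20 and TMM scaling lowered every ratio 1.27-fold. Under TMM, Runx1 was at 0.765, Runx2 at 1.95, just short of 2-fold, Runx3 at 1.40, and Cbfb, at 0.982, turned to the other side of 1. The genes past 2-fold split into 1058 higher and 602 lower before TMM and into 549 and 972 after it. Relative to the median gene, Runx2 was 2.15 and Runx3 1.54 times higher in Gzmb cells, and Runx1 was at 0.844.

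**Figure D2:**
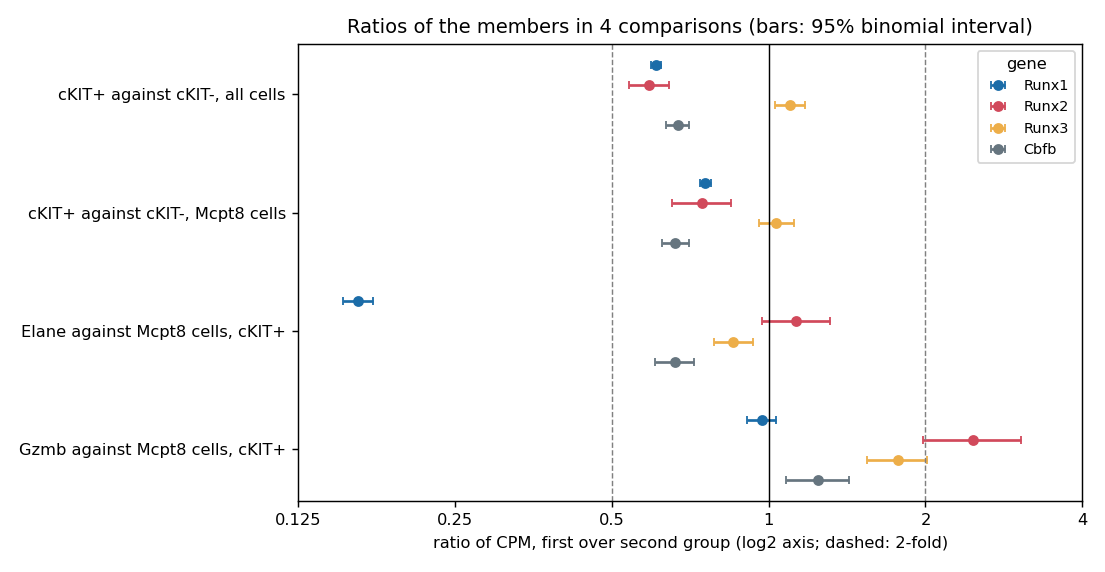
Ratio of CPM between the first and the second group named at the left (log2 axis) for each gene, with 95% binomial intervals; the solid line marks a ratio of 1 and the dashed lines 2-fold. Runx1 in Elane against Mcpt8 cells (0.163) and Runx2 in Gzmb against Mcpt8 cells (2.47) are the only values past 2-fold, and the latter is at 1.95 under TMM scaling.

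The makeup of the RUNX messages followed these levels. Runx1 gave 85.4% (84.9% to 85.9%) of the Runx1, Runx2 and Runx3 UMIs in cKIT+ Mcpt8 cells and 88.0% (87.4% to 88.6%) in cKIT- Mcpt8 cells. In Elane cells it gave 51.0% (48.7% to 53.3%), with Runx3 at 35.8% (33.6% to 38.0%) and Runx2 at 13.2% (11.7% to 14.9%). Gzmb cells lay between, with 74.7% (72.3% to 76.9%) Runx1 and 18.2% (16.2% to 20.3%) Runx3. The larger Runx3 share of Elane cells goes with a lower Runx1 level and not with a higher Runx3 level, since Runx3 CPM was lower there than in Mcpt8 cells. Summed over the 3 factors, there were 6.99 RUNX UMIs per Cbfb UMI in cKIT+ Mcpt8 cells, 5.94 in cKIT- Mcpt8 cells, 6.23 in Gzmb cells and 2.89 in Elane cells.

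**Figure D3:**
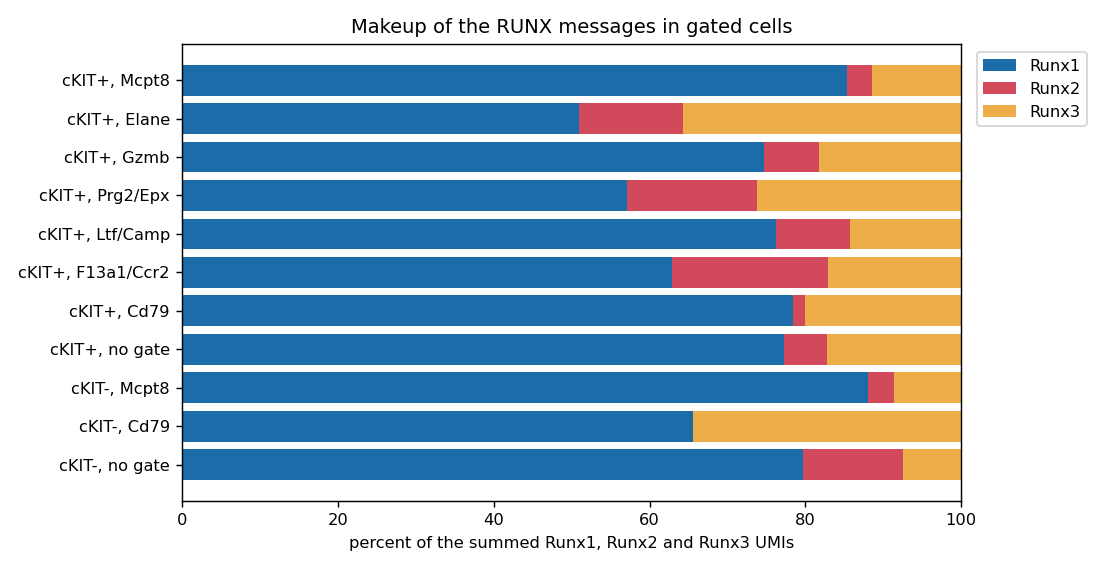
Percent of the summed Runx1 (blue), Runx2 (red) and Runx3 (yellow) UMIs in each gated group of at least 50 cells. Runx1 gives 51.0% in Elane cells and 85.4% and 88.0% in the Mcpt8 cells of the cKIT+ and cKIT- libraries.

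Smaller gates filled in the order of the levels. The groups of at least 50 cells labelled with no or 1 gate were ranked, where Mcpt8, Elane and Gzmb cells could also pass a smaller gate. Among them, Runx1 was highest in cKIT- Mcpt8 cells, then in the cKIT- cells of no gate at 425 CPM (403 to 448). Next came cKIT+ Mcpt8 and Gzmb cells, which overlapped, and the cKIT+ cells of no gate at 293 CPM (286 to 301). Cells gated on Cd79, on the monocyte genes F13a1 and Ccr2, and on the eosinophil granule genes Prg2 and Epx had 144, 142 and 122 CPM in the cKIT+ library, with overlapping intervals. Cells gated on Ltf and Camp, genes of neutrophil secondary granules, had 80.4 CPM (71.7 to 89.9), and the 72 cKIT- Cd79 cells 77.8 CPM (48.2 to 119), which overlapped with the cKIT+ Cd79 cells (107 to 189) and with Elane cells, the lowest. Of the groups in more than 1 gate, cells of more than 1 main gate in the cKIT+ library had 275 CPM, and cells of more than 1 other gate 87.5 CPM in the cKIT+ and 96.1 CPM in the cKIT- library. Runx3 was lowest in the 329 Ltf and Camp cells, at 15.0 CPM (11.4 to 19.4). Cbfb ranged from 38.9 CPM (32.9 to 45.6) in the same cells to 123 CPM (92.9 to 159) in the 63 cKIT+ F13a1 and Ccr2 cells, the latter overlapping with cKIT- Mcpt8 cells. Runx2 reached 35.5 CPM (27.6 to 45.0) in Prg2 and Epx cells and 45.2 CPM (28.0 to 69.1) in F13a1 and Ccr2 cells, both overlapping with Gzmb cells.

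The cKIT- cells of no gate had the highest Runx2 level of any group of at least 50 cells labelled with no or 1 gate. Runx2 had 69.0 CPM (60.3 to 78.5) there, from 227 UMIs in 1118 cells, 3.46 times (2.91 to 4.09) the level of cKIT- Mcpt8 cells. Of the 7800 genes tested between these groups, 23.7% were past 2-fold, 9.42% higher and 14.2% lower in the cells of no gate; this comparison was chosen after its values were seen. At 2000 UMIs per cell, 12.99% of those of these cells that reached this depth (10.96% to 15.2%) held a Runx2 UMI. The Cd79 cells of the same library, with 0 Runx2 UMIs, allow up to 11.1 CPM, below the level of the cells of no gate. Runx1 had a ratio of 0.812 (0.768 to 0.859), Runx3 of 0.772 (0.637 to 0.928) and Cbfb of 0.549 (0.468 to 0.640) between the same groups. Low Mcpt8 (1981 CPM) is set by the gate, and these cells were almost free of the proliferation gene Mki67 (3.95 CPM). They held 322 CPM of Cdh1 and 654 CPM of Cd200r3, a surface receptor gene of basophils and mast cells, against 185 and 296 CPM in cKIT- Mcpt8 cells. Hdc (870 against 484 CPM) and Gata2 (1606 against 1135 CPM) were higher there as well. Fcer1a (803 against 1621 CPM), Cpa3 (1035 against 3232 CPM), Il3ra (187 against 269 CPM) and Prss34 (666 against 51364 CPM) were lower. The median depth of the cells of no gate was 2905.5 UMIs. In the cKIT+ cells of no gate, Runx2 had 21.0 CPM (19.0 to 23.3), beside 5.86 CPM of Cd200r3 and 198 CPM of Mki67. The part of depth and of cell cycle in these levels was not tested.

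Splitting the cells of both libraries by their Mcpt8 share, a split also added after the data were seen, showed opposite courses for Runx1 and Runx2. Cells outside every other gate were placed in 7 bins. The bins under 0.5% hold the cells of no gate described above, so this part of the split repeats their values. Runx1 was higher at each step in the cKIT+ library, from 258 CPM (247 to 268) in cells with under 0.05% Mcpt8 to 495 CPM (464 to 528) at 4% or more. In the cKIT- library it went from 337 CPM (292 to 387) to 534 CPM (520 to 548) at 2% to 4%, and was 523 CPM (503 to 544) above that. Runx2 in cKIT- cells was between 57.1 and 73.4 CPM in the 3 bins under 0.5%, 44.7 and 45.9 CPM in the next 2 bins, and 15.4 CPM (13.1 to 17.9) and 15.9 CPM (12.5 to 19.9) at 2% or more, where the cKIT+ cells had 14.5 and 14.1 CPM. The libraries therefore overlapped in Runx2 at high Mcpt8 and differed at low Mcpt8, where cKIT+ cells had 22.3 CPM (19.3 to 25.7). Runx3 went the other way in the libraries at low Mcpt8, with 70.2 CPM (64.8 to 76.0) in cKIT+ and 36.7 CPM (23.0 to 55.5) in cKIT- cells, and met near 51 CPM at 2% to 4%. Cbfb was level in cKIT+ cells up to 2% Mcpt8 and stood at 106 CPM (90.4 to 124) and 108 CPM (102 to 114) in the cKIT- bins from 1% to 4%. Median depth ran from 2510.5 UMIs in the lowest to 9387 in the highest cKIT- bin, and Mki67 from 6.67 to 273 CPM. The lowest bins of the libraries did not hold like cells. Cd200r3 was at 1.95 CPM in cKIT+ and 515 CPM in cKIT- cells there, Kit at 63.5 and 0 CPM, and Mki67 at 186 and 6.67 CPM. The libraries are thus not matched at low Mcpt8.

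**Figure D4:**
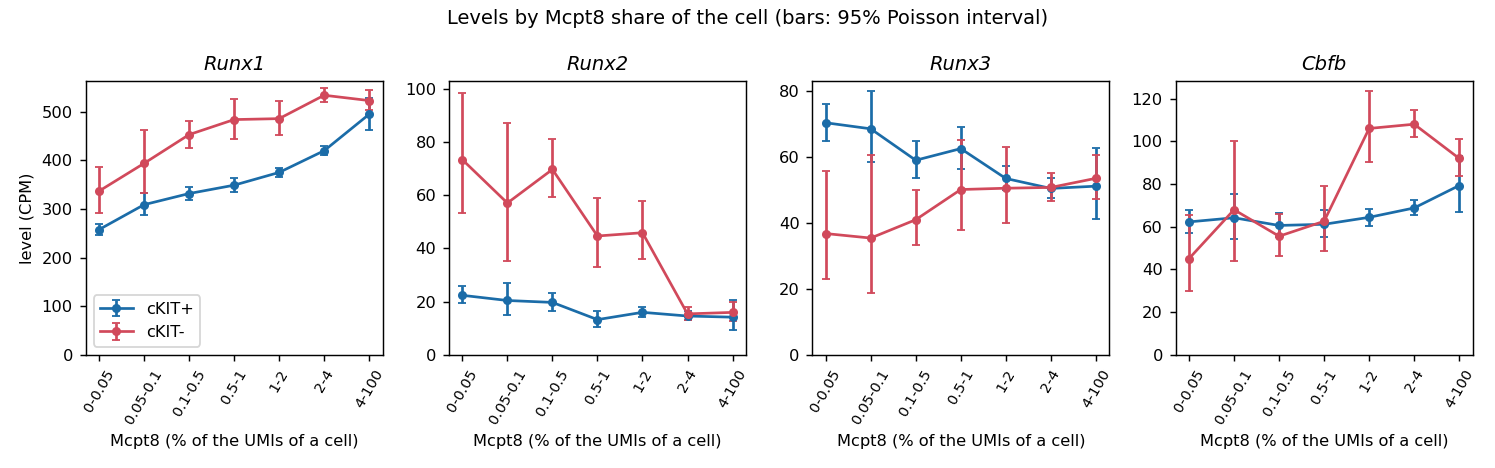
Level of each gene (CPM, with 95% Poisson intervals) in cells binned by the percent of their UMIs from Mcpt8, for cKIT+ (blue) and cKIT- (red) cells outside every other gate. Runx1 goes from 258 to 495 CPM in cKIT+ cells, and Runx2 in cKIT- cells goes from 73.4 CPM to 15.9 CPM.

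Inside the Mcpt8 gate, the members differed between mitotic and other cells, with Cbfb higher and Runx3 lower in mitotic cells. Cells were called Prss34 high at 2% or more of their UMIs, and mitotic where 8 genes such as Mki67 and Top2a together gave at least 0.1%. In Prss34 high cells, Cbfb had 74.5 CPM (70.2 to 79.1) in mitotic and 56.2 CPM (50.7 to 62.1) in other cKIT+ cells. The same contrast in cKIT- cells was 130 CPM (122 to 137) against 72.4 CPM (66.4 to 78.8). Among non-mitotic cells the Cbfb intervals of the libraries overlapped in Prss34 low cells and not in Prss34 high cells. Runx3 had 44.5 CPM (41.2 to 48.1) in mitotic and 56.9 CPM (51.4 to 62.8) in other Prss34 high cKIT+ cells, and 45.6 CPM (41.3 to 50.3) and 56.9 CPM (51.6 to 62.6) in cKIT- cells, so at a matched state the libraries did not differ beyond counting error. Runx1 was higher in cKIT- cells in each of the 4 states, from 450 CPM (418 to 485) against 376 CPM (365 to 386) in Prss34 low non-mitotic cells to 633 CPM (535 to 743) against 352 CPM (341 to 363) in Prss34 low mitotic cells, of which the cKIT- library held 33. Runx2 was 13.2 CPM (11.4 to 15.2) and 13.1 CPM (10.8 to 15.7) in Prss34 high mitotic cells of the libraries, and 16.3 CPM (14.2 to 18.7) against 48.0 CPM (37.7 to 60.1) in Prss34 low non-mitotic cells. Mitotic Prss34 high cells had more Runx1 than other Prss34 high cells, 448 against 395 CPM in cKIT+ and 564 against 487 CPM in cKIT- cells. In Prss34 low cKIT+ cells this order was reversed, at 352 against 376 CPM. Runx2 was lower in mitotic than in other Prss34 high cKIT- cells, 13.1 against 21.6 CPM, while the cKIT+ intervals overlapped.

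**Figure D5:**
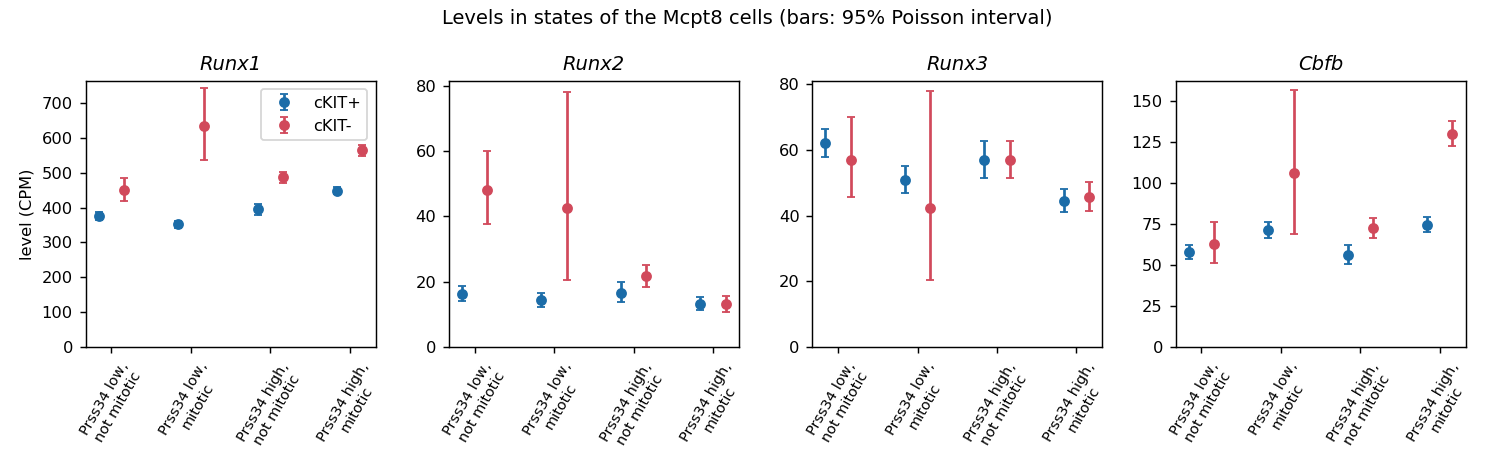
Level of each gene (CPM, with 95% Poisson intervals) in 4 states of Mcpt8 cells, for the cKIT+ (blue) and cKIT- (red) libraries. Runx2 is level between the libraries in Prss34 high mitotic cells (13.2 and 13.1 CPM) and at 16.3 and 48.0 CPM in Prss34 low non-mitotic cells, and Cbfb is highest, at 130 CPM, in Prss34 high mitotic cKIT- cells.

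Detection of Runx1 in a cell was set beside that of the other members. Among cKIT+ Mcpt8 cells at 2000 UMIs, 10.5% (9.07% to 12.1%) of the cells with a Runx1 UMI and 10.4% (8.82% to 12.1%) of those without held a Runx3 UMI. For Cbfb the shares were 12.6% (11.04% to 14.3%) and 11.6% (9.92% to 13.4%), and for Runx2 3.48% (2.65% to 4.47%) and 3.10% (2.24% to 4.16%). In cKIT- Mcpt8 cells Runx2 was in 6.46% (5.20% to 7.91%) of the cells with and 4.22% (2.95% to 5.82%) of the cells without a Runx1 UMI. These intervals overlap in every pair named, and at a depth at which so few cells hold a Runx2 UMI they do not show that the members are detected independently.

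Genes for partners of RUNX at DNA were a list of 13, in which Lmo2 and Ldb1 encode adaptors and not DNA-binding proteins. This list and those of the next paragraphs were chosen with earlier results of these data known. Their counts and medians beside those of all tested genes therefore only describe. Between the sorted populations, of the 11 that reached 10 CPM, cKIT+ cells had 1 past 2-fold on the higher side and 3 on the lower side, beside 7.3% and 9.06% of all tested genes. Myb, a factor of immature and dividing blood cells, had 307 against 71.9 CPM, while Cebpa, a granulocyte factor, had 223 against 667 CPM, Ets1 185 against 475 CPM and Gata2, a factor of mast cells and basophils, 496 against 1132 CPM. Within Mcpt8 cells, Myb at 2.55 times (2.42 to 2.70) and Cebpa at 2.03 times lower (1.98 to 2.08) were past 2-fold, 2 of 11 beside 9.01% of all tested genes. In Elane against Mcpt8 cells, 2 of 11 were higher and 5 lower, beside 5.94% and 8.84% of all tested genes. Lyl1 was 2.89 times and Myb 2.31 times higher, while Gata2 was 36.6 times (32.6 to 41.3), Gata1, the erythroid factor, 15.8 times, Ets1 11.4 times (10.3 to 12.6) and Cebpa 4.08 times lower. In Gzmb against Mcpt8 cells, 3 of 12 were higher, Tal1 at 3.31 times (2.88 to 3.79), Erg at 2.78 times and Ldb1 at 2.32 times, the last at 1.83 under TMM. Cebpa was 16.2 times, Ets1 15.1 times and Lmo2 3.27 times lower there, so 6 of 12 were past 2-fold beside 20.1% of all tested genes. The median log2 ratios of the list were -0.52, -0.46, -0.58 and -0.32 in the 4 comparisons, against -0.03, -0.04, 0.01 and 0.20 over all tested genes. Ets1 was thus lower in Elane cells, as Runx1 was. In Gzmb cells it was unlike Runx1, which had a ratio of 0.969 by CPM and of 0.765 under TMM.

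Of 20 corepressors and coactivators, 2 were higher and 2 lower in cKIT+ than in cKIT- cells among the 16 that reached 10 CPM, where 16.4% of all tested genes were past 2-fold. Cdk6, a cell cycle kinase that binds RUNX1, had 416 against 146 CPM and Prmt1, an arginine methyltransferase, 198 against 97.5 CPM. The Groucho family genes Tle1 and Aes were 2.50 and 2.04 times lower. Within Mcpt8 cells Cdk6 alone was past 2-fold, 2.25 times higher (2.16 to 2.34), 1 of 16 beside 9.01%. In Elane cells, Cbfa2t3, an ETO family corepressor, was 3.84 times (3.55 to 4.16) and Tle1 3.73 times lower, and 0 of 17 were higher, beside 8.84% lower and 5.94% higher among all tested genes. In Gzmb cells, Tle2 at 5.52 times (4.03 to 7.47) and Tle3 at 3.08 times (2.57 to 3.68) were higher and Tle1 3.50 times lower, so members of this family differed in both directions, under TMM as well. This made 3 of 18 past 2-fold, beside 20.1% of all tested genes. The list medians were -0.15, -0.04, -0.28 and 0.31 on the log2 scale, in the order of the comparisons, against the medians of -0.03, -0.04, 0.01 and 0.20 over all tested genes.

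The third list held 18 genes reported as RUNX targets, some of which also stand in the list of partners. Between the sorts, 5 of 12 were higher in cKIT+ cells, led by Itga4, an integrin gene (94.1 against 20.8 CPM), Myb, Mpo (3825 against 991 CPM) and Pf4, and 4 were lower, led by the cytokine gene Il4 at 14.2 times (12.3 to 16.5), Cebpa, Zbtb7b and Itgal, where 7.3% and 9.06% of all tested genes were higher and lower. Within Mcpt8 cells 3 of 10 were higher, Itga4 at 4.13 times (3.65 to 4.69), Mpo and Myb, and 3 lower, Il4 at 7.89 times (6.66 to 9.38), Zbtb7b and Cebpa, where 9.01% of all tested genes were past 2-fold. In Elane cells 3 of 9 were higher, with Gfi1, a repressor of granulocyte progenitors, at 15.7 times (13.8 to 17.9), and 3 were lower, with its relative Gfi1b at 32.6 times (19.0 to 61.4), where 14.8% of all tested genes were past 2-fold. In Gzmb cells Itga4 was 11.2 times higher (10.6 to 11.9), and Mpo 22.6 times (20.4 to 25.02), Cebpa, Itgal and Cdkn1a were lower, 1 and 4 of 8, where 12.8% of all tested genes were higher and 7.28% lower. The list medians were -0.64, -0.55, -0.24 and -1.003 on the log2 scale, against the same medians over all tested genes. These genes were on both sides in each comparison.

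The genes most like each member were ranked by the Pearson correlation of log2(CPM + 1) over 9 groups of at least 50 cells that passed a gate, 7 cKIT+ and 2 cKIT-, among 8252 genes with at least 20 CPM in 1 group. Groups share their library and differ in depth, so these values only describe. Osbpl3 (r = 0.976), Csf2rb2, which encodes a receptor chain for interleukin 3, Klhl18, the cytokine gene Il6 and Lag3 followed Runx1. Grk3 (0.975), Ppm1h, Wapl and Trim41 followed Runx2. For Runx3 they were Hscb (0.964), Abcc1, Aamdc, B3galnt2 and Dnajc1, and for Cbfb Dcakd (0.958), Ctnna1, which encodes the alpha-catenin that E-cadherin binds through beta-catenin, Chmp4b, Casp2 and Ppp1r9b. Among the members themselves, the closest pair was Runx1 and Cbfb at 0.638 and the farthest Runx2 and Runx3 at 0.335. Runx2 had 1 UMI in the cKIT+ and 0 UMIs in the cKIT- Cd79 group, so all its correlations rest in part on these few counts. No other member was among the 5 genes most like any of the 4.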

How the data were processed

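E-cadherin+ cells of mouse bone marrow were sorted by cKIT, and each of the 2 populations gave 1 library. The deposited values are unnormalized counts of UMIs for every gene in every cell. The authors obtained them with Cell Ranger 3.0.2, with mm10 (GRCm38) as the genome build in the processing notes of the labels. The methods and the labels name different versions of the 10x kit. The annotation release is not given in the sources used here, and 31011 of 31053 gene identifiers were found in GENCODE M21. Cells were filtered as in the study: genes had to be seen in 40 or more cells, and cells in the top or bottom 1% by genes or the top 1% by UMIs were dropped. This kept 6479 of 6632 and 3662 of 3745 cells.

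CPM are summed UMIs over the total of a group of cells. A gate required a marker share of the UMIs of a cell and at least 3 UMIs. Cells in more than 1 main gate (Mcpt8, Elane, Gzmb) were set aside, and 10 other gates took cells outside these. Ratios of at least 2 were counted among genes with at least 10 CPM in either group. For a count of 0, the upper limit is 3 counts or cells of the total. The count step and its intervals were tested on simulated data drawn with Poisson noise only. This checks the computation, and not whether the intervals cover the spread between cells or libraries.

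The genes named are the 4 members, the gate markers, the list genes with the largest ratios (up to 4 per list and direction) and the 5 genes most like each member, of which 1 for Runx2 is not reported here. The members, gates and lists were chosen with earlier results of these data known. Scrublet in Scanpy 1.11.5 called 347 cKIT+ and 15 cKIT- cells. Doublets were kept, and the highest scores were left out as an alternative. edgeR 4.0.16 in R 4.3.3 gave TMM scaling only, since there are no replicates to test. Further alternatives covered the cell filter, depth, weighting of cells, abundant genes, gate limits and shared barcodes. Counting is strand-aware in this kind of 3′ library, but the setting used was not given, so Runx2 and the antisense genes inside it are reported as uncertain. Supt3, on the opposite strand, overlaps the first part of Runx2 and had 2146 UMIs in cKIT+ and 639 in cKIT- cells. Its part in the Runx2 counts was not tested.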

Additional observations from a re-analysis of the deposited data

Results flagged for a closer look

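Signals of Runx2 outside the compared gates reached at least 3 times the highest level of the Mcpt8, Elane or Gzmb group of the same library. Siglech cells, gated on a surface marker gene of plasmacytoid dendritic cells, had 618 CPM of Runx2 (353 to 1003), from 16 UMIs in 3 cells, in the cKIT+ library. In the cKIT- library they had 648 CPM (396 to 1000), from 20 UMIs in 7 cells. Runx2 gave 72.7% and 83.3% of their RUNX UMIs, so these few cells were the groups in which Runx2 and not Runx1 was the main RUNX message. In the cKIT- library, Runx2 was also at 66.6 CPM in the 40 F13a1 and Ccr2 cells, at 69.0 CPM in the 1118 cells of no gate, and at 89.7 CPM (67.8 to 116) in the 185 cells that passed more than 1 of the other gates. The highest of its compared groups was at 19.96 CPM. In that last group, 53 of the 56 Runx2 UMIs lay in the 14 cells that passed the Siglech gate with another, at 659 CPM (494 to 862), and the 171 cells without it had 5.52 CPM (1.14 to 16.1). The cKIT+ cells of more than 1 of these gates split alike, with 614 CPM in 7 cells and 15.4 CPM in 136 cells.

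Antisense genes inside Runx2 were the other signal that the comparisons did not use. Runx2os1 had 3.03 CPM (276 UMIs) in the cKIT+ and 4.46 CPM (102 UMIs) in the cKIT- library, and Runx2os2 had 0.230 CPM (21 UMIs) and 0.525 CPM (12 UMIs). These are values only, since more than 3 UMIs of any gene would have been listed here. Runx2os3 had 0 UMIs in both.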

How the results depend on the processing

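No paired analysis was possible because each population is 1 library and its label carries no replicate number. Of 140 alternative ratios of the members, 114 stayed within the counting interval of the reported ratio and 26 did not. Only Runx1 in Elane and Runx2 in Gzmb against Mcpt8 cells were past 2-fold, and neither changed side of 1. Ratios nearer to 1 did change side. These were Runx2 in Elane (down to 0.940) and Cbfb in Gzmb against Mcpt8 cells (0.982), and Runx3 between the sorts in Mcpt8 cells (0.969). Thinning each cell to 2000 UMIs gave cKIT+ over cKIT- ratios of 0.702 for Runx1, 0.492 for Runx2, 1.19 for Runx3 and 0.805 for Cbfb in all cells, and of 0.802, 0.579 and 0.755 for Runx1, Runx2 and Cbfb in Mcpt8 cells. It also gave 0.940 for Runx2 and 0.589 for Cbfb in Elane against Mcpt8 cells. The same weight for every cell gave 0.679, 0.489 and 0.834 for Runx1, Runx2 and Cbfb in all cells, and 0.789, 0.622 and 0.756 in Mcpt8 cells. Runx2 is therefore past 2-fold between the sorts under these settings. Leaving the 10 most abundant genes out of the totals gave 0.564, 1.02 and 0.623 for Runx1, Runx3 and Cbfb in all cells, and 0.709 and 0.620 for Runx1 and Cbfb in Mcpt8 cells. Elane cells in no other gate gave 0.147 for Runx1. TMM scaling gave 0.621 for Runx1 in all cells, and in Gzmb against Mcpt8 cells 0.765, 1.95, 1.40 and 0.982 for Runx1, Runx2, Runx3 and Cbfb. The cause was not tested beyond these constructions. Over all alternatives the Runx1 ratio of Elane to Mcpt8 cells was between 0.147 and 0.172. Leaving out the 10 shared barcodes, chosen after seeing the data, moved no ratio beyond its interval.

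Counts of genes past 2-fold, higher and lower in the first group, moved by construction with the minimum and the fold. For all cells they were 198 and 371 at 50 CPM, 2500 and 1675 with 10 UMIs as the only minimum, and 132 and 174 at 4-fold. For Mcpt8 cells they were 103 and 174, 1524 and 888, and 52 and 69. For Elane against Mcpt8 cells they were 165 and 298, 1304 and 1953, and 167 and 293, and for Gzmb against Mcpt8 cells 311 and 273, 2371 and 1556, and 252 and 238, with 549 and 972 under TMM. Shares of cells with a UMI follow the depth. For Runx1, Runx2, Runx3 and Cbfb in cKIT+ cells they were 25.9%, 2.05%, 5.06% and 6.49% at 1000 UMIs and 82.9%, 20.2%, 47.4% and 52.0% unthinned. In cKIT- cells they were 34.5%, 4.35%, 4.595% and 7.57% at 1000 UMIs and 78.0%, 15.2%, 23.7% and 35.7% unthinned, so the unthinned order of the libraries goes against the CPM for Runx1, Runx2 and Cbfb.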
